A study of Homo sapiens with 12 samples.

Results

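The Janus kinases and the STAT factors form the short chain that carries cytokine signals from a receptor to the nucleus. The genes described here are JAK1, JAK2, JAK3, TYK2, STAT2, STAT3, STAT4, STAT5B and STAT6, taken by symbol from the annotation of the array platform. Of these 9 genes, 8 were measured, each by 1 probe set, among 18417 named genes. STAT2 had no probe set that carried its symbol alone in the annotation used. Probe sets with several symbols were left out, and the level of STAT2 is not analysed here.

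Janus kinases sit in pairs on the inner tails of cytokine receptors, and a bound cytokine lets them phosphorylate each other, the receptor and the STAT proteins that dock there. The phosphorylated STATs pair up, enter the nucleus and bind DNA, and their targets include SOCS genes, whose products shut the chain off again. In anaplastic large cell lymphoma (ALCL), a lymphoma of T-cell origin, STAT3 is known as a main downstream factor of the fusion kinase that marks much of the disease, and this activation is a phosphorylation that RNA levels do not report.

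The RNA came from 4 established human ALCL cell lines, DEL, Karpas299, SUPM2 and SUDHL-1, all grown in serum-containing medium to logarithmic phase, stained with a Hoechst dye and sorted by flow cytometry, with no other treatment and no engineered allele named in the labels. Side population (SP) cells hold little of the dye, which membrane pumps export, and main population (MP) cells retain it. SUDHL-1 had 3 SP and 3 MP arrays, and DEL, Karpas299 and SUPM2 had 1 SP and 1 MP array each, 12 Affymetrix arrays in all. The labels number the SUDHL-1 arrays but name no separate cultures. The p-values within SUDHL-1 therefore reflect only how far these arrays scatter, a scatter that may be technical. Those over the 4 lines reflect how far SP minus MP spread between lines. Those among DEL, Karpas299 and SUPM2 rest on the same kind of spread, and fits of all 12 arrays mix both. Such fits give each line its own term, so their p-values do not measure how far lines spread in level. The values were log2 signals, and the number of arrays limits their precision. In such bulk samples, fewer cells that express a gene and less RNA per cell cannot be told apart.

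The median over all probe sets was 4.83 to 5.0 on SUDHL-1 arrays and 5.24 to 5.35 elsewhere, and arrays correlated at 0.965 to 0.986 within SUDHL-1 and at 0.855 to 0.908 between SUDHL-1 and the others. The labels do not say whether SUDHL-1 was run as a separate set of arrays. A low or high level in SUDHL-1 and such a set cannot be told apart. Of the T-cell and ALCL markers, IL2RA (10.91 to 12.21), GZMB (9.64 to 12.10), PTPRC (8.46 to 10.45) and TNFRSF8, the CD30 receptor (6.80 to 10.51), were high on every array. Of the CD3 chains of the T-cell receptor, CD3E (3.11 to 4.76) and CD3G (3.20 to 3.74) were low on every array, while CD3D was at 5.42 to 5.94 in DEL and at 8.86 to 10.51 in the other lines. CD4 was at 9.32 to 9.66 in Karpas299 and SUPM2 and at 3.45 to 5.39 in DEL and SUDHL-1. CD28 was low on every array (3.18 to 4.25), and CD5 ran from 4.91 to 9.34. CD2 was at 8.96 to 9.42 in SUPM2 and at 3.39 to 4.54 in the other lines. Of the markers of other cells, MS4A1 of B cells (2.83 to 3.37), LYZ of myeloid cells (2.44 to 3.25) and EPCAM of epithelium (2.32 to 3.24) were low on every array, but others were not. In the myeloid list, S100A9 was at 6.88 to 9.32 and CSF1R at 7.45 to 8.59 in the lines other than SUDHL-1, where they were at 4.75 to 5.05 and 4.90 to 5.55, and S100A8 reached 8.68 in DEL. KRT18 was at 5.40 to 7.78 and the NK cell gene KLRC1 reached 7.78 in Karpas299. In the B cell list, PAX5 was at 6.65 to 6.78 in Karpas299 and BLK reached 6.10 in SUPM2. In the stromal and epithelial list, PECAM1 reached 6.86 in Karpas299 and DCN 6.03 in DEL. The mean over the 8 myeloid genes was 4.22 to 4.46 on the SUDHL-1 arrays and 5.29 to 5.98 on the others, and in DEL it was 5.43 in SP and 5.98 in MP. The part of these markers in the differences below was not tested.

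The promoters of 3 members are shown because these genes carry the clearest patterns in the values that follow: STAT3 was the member that stood higher in SUDHL-1, JAK3 stood lower there, and TYK2 had the widest SP against MP difference in any line. Each is the 250 bases before the RefSeq start site (GRCh38.p14), read 5′ to 3′ on the gene's own, minus strand. Capitals mark GC boxes (GGGCGG or CCGCCC) and CCAAT boxes (CCAAT or ATTGG). JAK3 lies at chr19:17847983-17848232, TYK2 at chr19:10380573-10380822 and STAT3 at chr17:42388443-42388692.
JAK3: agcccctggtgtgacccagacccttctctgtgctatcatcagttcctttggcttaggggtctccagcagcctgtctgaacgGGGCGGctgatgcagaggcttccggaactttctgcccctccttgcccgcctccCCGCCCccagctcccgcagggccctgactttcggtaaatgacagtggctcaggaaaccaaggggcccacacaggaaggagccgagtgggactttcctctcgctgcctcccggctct
TYK2: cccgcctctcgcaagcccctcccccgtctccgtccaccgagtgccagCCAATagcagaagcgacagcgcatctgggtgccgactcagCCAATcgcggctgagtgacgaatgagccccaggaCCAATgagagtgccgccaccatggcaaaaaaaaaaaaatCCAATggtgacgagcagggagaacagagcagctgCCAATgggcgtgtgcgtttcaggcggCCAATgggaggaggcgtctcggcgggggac
STAT3: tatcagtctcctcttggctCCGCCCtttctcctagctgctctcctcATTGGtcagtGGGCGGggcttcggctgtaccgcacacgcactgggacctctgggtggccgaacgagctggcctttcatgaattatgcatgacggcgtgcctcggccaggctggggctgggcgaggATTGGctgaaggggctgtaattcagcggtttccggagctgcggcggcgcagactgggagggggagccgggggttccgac

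The TYK2 window held 6 CCAAT boxes and no GC box, the JAK3 window 2 GC boxes and no CCAAT box, and the STAT3 window 2 of each. Their GC contents were 62.0%, 62.8% and 64.4%, beside a median of 58.0% over 35116 human promoter windows of the same length. RefSeq held 15 such windows for the 9 listed genes. A GC box occurred in 7 of the 15 windows and in 42.6% of all windows, and a CCAAT box in 3 of the 15 (TYK2, STAT3 and STAT6) and in 32% of all windows. The letters of a STAT site, TTCNNNGAA, were in 0 of the 15 windows and in 6.57% of all windows, both strands searched. The wider STAT6 form of that site and the interferon-stimulated response element were also in 0 of 15, beside 5.38% and 3.02% of all windows. ETS letters (CCGGAAG) were in windows of JAK1 and JAK3 (8.52% of all), and the E-box CACGTG in 0 of 15 (6.34%). A loose AP-1 pattern with any middle base (TGANTCA) was in a window of STAT4, as TGAATCA, and in 6.57% of all windows. A match or its absence in this window describes letters only.

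**Figure D1:**
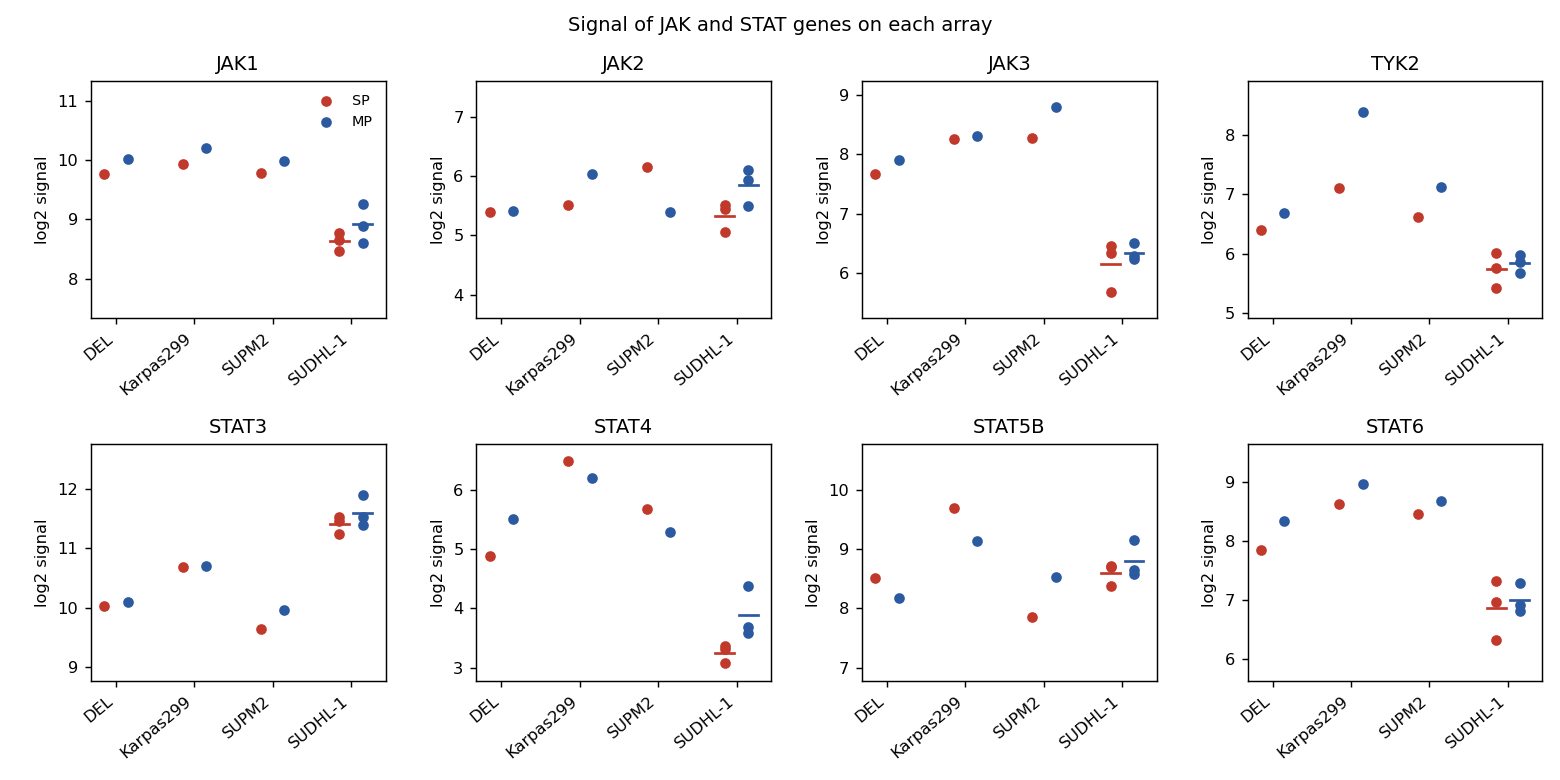
Log2 signal of the 8 measured JAK and STAT genes on each of the 12 arrays, by cell line, with SP in red and MP in blue; each point is 1 array and the short lines are SUDHL-1 means of 3 arrays. Each panel has its own range. JAK1, JAK3, TYK2, STAT4 and STAT6 lie lower on all 6 SUDHL-1 arrays than on the other 6, STAT3 lies higher, and JAK2 and STAT5B overlap.

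The first question was how strongly each gene was expressed in each line, beginning with the kinases. JAK1, the kinase shared by the interferon, IL6-family and common gamma chain receptors, had SUDHL-1 signals with a lowest, median and highest value of 8.46, 8.71 and 9.25. Its signals were 9.76 (SP) and 10.02 (MP) in DEL, 9.93 and 10.20 in Karpas299, and 9.79 and 9.98 in SUPM2. The ranges of the 3 lines other than SUDHL-1 overlapped, and every SUDHL-1 array was below them.

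JAK3, the kinase that pairs with the common gamma chain and is largely restricted to blood cells, had SUDHL-1 signals of 5.67, 6.31 and 6.50 (lowest, median and highest). It was 7.67 (SP) and 7.91 (MP) in DEL, 8.26 and 8.31 in Karpas299, and 8.27 and 8.80 in SUPM2. The order was SUDHL-1, then DEL, then Karpas299 and SUPM2, and the last pair differed by -0.25 (SE 0.20, limma adjusted p = 0.561) for Karpas299 minus SUPM2, with ranges that overlapped.

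TYK2, the kinase of the type I interferon, IL12 and IL23 receptors, had SUDHL-1 signals of 5.43, 5.81 and 6.01. It was 6.39 (SP) and 6.69 (MP) in DEL, 6.62 and 7.12 in SUPM2, and 7.10 and 8.39 in Karpas299. DEL and SUPM2 overlapped, and the Karpas299 MP array was the highest of the 12 by a wide step.

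JAK2, the kinase of the hormone-like and interferon gamma receptors, had no such order. Its SUDHL-1 signals were 5.05, 5.50 and 6.10, and the other lines lay between 5.39 and 6.15. Its highest SP and MP values came from different lines, with 6.15 in the SUPM2 SP array and 6.10 in an MP array of SUDHL-1.

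Among the transcription factors, STAT3, which answers the IL6, IL10 and IL21 families, had SUDHL-1 signals of 11.25, 11.50 and 11.90. It was 10.03 (SP) and 10.10 (MP) in DEL, 10.69 and 10.71 in Karpas299, and 9.64 and 9.97 in SUPM2. All 6 SUDHL-1 arrays stood above the rest. The gene ranked above 99.0% to 99.5% of all genes on the SUDHL-1 arrays and above 95.4% to 98.3% on the others.

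STAT4, the factor of IL12 signalling in T and natural killer cells, ran the other way. Its SUDHL-1 signals were 3.07, 3.47 and 4.38, a dim range that exceeded only 11.0% to 32.0% of genes on the same arrays. It was 4.88 (SP) and 5.50 (MP) in DEL, 5.67 and 5.29 in SUPM2, and 6.48 and 6.19 in Karpas299. DEL and SUPM2 overlapped, and Karpas299 was above both.

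STAT6, the factor of IL4 and IL13, had SUDHL-1 signals of 6.32, 6.94 and 7.32. It was 7.84 (SP) and 8.34 (MP) in DEL, 8.45 and 8.67 in SUPM2, and 8.63 and 8.95 in Karpas299. The SUPM2 and Karpas299 ranges overlapped, while DEL was just below both.

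STAT5B, a factor of IL2, IL7 and growth hormone signalling, had SUDHL-1 signals of 8.37, 8.67 and 9.15. It was 8.51 (SP) and 8.17 (MP) in DEL, 7.86 and 8.53 in SUPM2, and 9.69 and 9.13 in Karpas299. The SP array of Karpas299 was the highest of all, and the other 3 lines overlapped.

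With limma on all 12 arrays, at a Benjamini-Hochberg adjusted p under 0.05 over all genes, 6 of the 8 members differed between SUDHL-1 and the mean of the other lines, 1 higher and 5 lower. The p-values of this comparison set 1 line against the others and do not measure how far lines spread in level. The background was large, since 65.6% of all genes passed the same test, 16.4% higher and 49.2% lower, so the count of members that passed is close to that of genes in general. STAT3 was higher in SUDHL-1 by 1.32 on the log2 scale, or 2.50-fold (SE 0.11, adjusted p = 3.55e-06). STAT4 was lower by a log2 difference of -2.10, or 4.29-fold (SE 0.20, adjusted p = 6.84e-06). JAK3 was lower at -1.96 (SE 0.14, adjusted p = 1.19e-06), a 3.88-fold difference.

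STAT6, TYK2 and JAK1 were also lower in SUDHL-1, with log2 differences of -1.54 (SE 0.17), -1.26 (SE 0.17) and -1.17 (SE 0.12) and limma adjusted p of 1.89e-05, 9.43e-05 and 1.29e-05. JAK2 at -0.058 (SE 0.19, adjusted p = 0.802) and STAT5B at 0.044 (SE 0.17, adjusted p = 0.835) did not pass. The SUDHL-1 arrays did not overlap the other arrays for 6 of 8 members and for 36.6% of all genes. They lay wholly above for STAT3 (7.51% of genes) and wholly below for 5 members (29.1% of genes).

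The median of all genes in this comparison was -0.33 as deposited, -0.051 after the columns were quantile normalized again and 0.037 after each array was centred on its median. The calls split into 3014 higher and 9059 lower as deposited, into 4270 higher of 9505 calls after quantile normalization and into 5318 higher of 9785 calls after centring. The same 6 members passed under both scalings, with STAT3 at 1.25 and 1.68, JAK3 at -1.80 and -1.59, and STAT4 at -1.74 under each. JAK2 changed sign under both scalings, to 0.28 and 0.30, without passing.

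**Figure D2:**
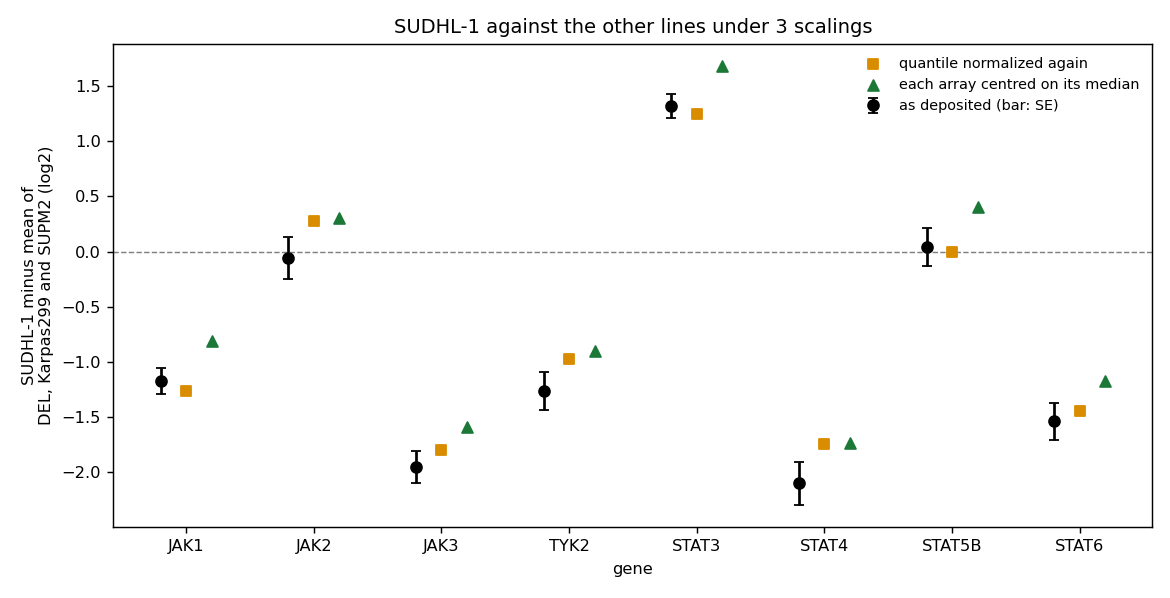
Log2 difference of SUDHL-1 minus the mean of DEL, Karpas299 and SUPM2 for each JAK and STAT gene, as deposited (black, bars are SE from limma on 12 arrays), after quantile normalization (orange squares) and after centring each array on its median (green triangles). STAT3 is above 0 and JAK1, JAK3, TYK2, STAT4 and STAT6 are below 0 in all 3, while JAK2 crosses 0.

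DEL, Karpas299 and SUPM2 were compared on their own 6 arrays, with population as a term, so that each difference rests on 1 SP and 1 MP array per line and 2 residual degrees of freedom. None of the 8 members passed the adjusted threshold in any of the 3 comparisons as fitted by limma. Of all genes, 2.41% passed in DEL against Karpas299, 4.72% in DEL against SUPM2 and 6.81% in Karpas299 against SUPM2. At an unadjusted p under 0.05 the members numbered 5, 2 and 4 of 8, beside 15.6%, 20.5% and 22% of genes.

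Every member had a lower mean in DEL than in Karpas299, where 44.5% of all genes were above 0. The widest of these differences were TYK2 at -1.21 (SE 0.29, adjusted p = 0.116), STAT4 at -1.15 (SE 0.30, adjusted p = 0.139) and STAT5B at -1.07 (SE 0.33, adjusted p = 0.203). Karpas299 against SUPM2 gave STAT5B at 1.22 (SE 0.33, adjusted p = 0.105), STAT3 at 0.90 (SE 0.19, adjusted p = 0.0568) and TYK2 at 0.88 (SE 0.29, adjusted p = 0.156). STAT3 lay close to the threshold: it passed with each array centred on its median (0.97, adjusted p = 0.0437), with a robust trended variance (adjusted p = 0.0489) and in a limma fit of all 12 arrays (adjusted p = 0.0140). That 12-array fit also called STAT5B between the same lines (adjusted p = 0.0250) and TYK2 between DEL and Karpas299 (adjusted p = 0.0427). In DEL against SUPM2 the member of smallest p was JAK3 at -0.74 (SE 0.20, adjusted p = 0.121).

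Both Karpas299 arrays were above both arrays of DEL and of SUPM2 for 3 of 8 members, against 11.6% of genes. Both DEL arrays were the lowest for 2 members, against 13.5% of genes, and both SUPM2 arrays for 1, against 12.9%.

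The second question was whether SP and MP cells differed. In SUDHL-1, the line with replicate arrays, 0 of the 8 members and 0 of all 18417 genes (0%) passed limma's adjusted threshold. At an unadjusted p under 0.05 there were 577 genes (3.13%), among them the members JAK2 and STAT4. All 8 members had a lower mean in SP than in MP, where 49.9% of all genes had a higher one.

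STAT4 was the member whose groups did not overlap, with signals of 3.07, 3.36 and 3.31 in SP and 3.59, 4.38 and 3.68 in MP. Its means were 3.25 ± 0.15 and 3.88 ± 0.43 (SD, n = 3), a difference of -0.63 (SE 0.23, limma adjusted p = 1.00). The groups of 7.16% of genes did not overlap, with SP wholly below MP for 3.42%. Without the MP array numbered 2, the highest of the 6, the STAT4 difference was -0.39.

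JAK2 had signals of 5.50, 5.44 and 5.05 in SP and 5.93, 5.50 and 6.10 in MP, so that SP array 1 and MP array 2 met. The means were 5.33 ± 0.25 and 5.84 ± 0.31 (SD, n = 3) and the difference -0.51 (SE 0.21, limma adjusted p = 1.00). Without both arrays numbered 3, the lowest SP and the highest MP array for this gene, it was -0.24.

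JAK1 had SP signals of 8.65, 8.77 and 8.46 and MP signals of 8.88, 8.60 and 9.25, which overlapped, with a difference of -0.28 (SE 0.20, limma adjusted p = 1.00). STAT3 had SP signals of 11.53, 11.47 and 11.25 and MP signals of 11.39, 11.53 and 11.90, with a difference of -0.19 (SE 0.18, limma adjusted p = 1.00). In both genes the MP array numbered 3 was the highest of the 6, and without it the differences were -0.11 and -0.048.

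JAK3, STAT5B, STAT6 and TYK2 had SUDHL-1 differences of -0.19, -0.19, -0.14 and -0.11, each with overlapping groups and a limma SE of 0.19 to 0.27. The signs of JAK3, TYK2 and STAT6 turned in at least 1 fit that left out a single array, and that of STAT3 only without both arrays numbered 3. Without both arrays numbered 3, JAK3 stood at 0.13, STAT3 at 0.035, TYK2 at -0.23 and STAT6 at -0.22.

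**Figure D3:**
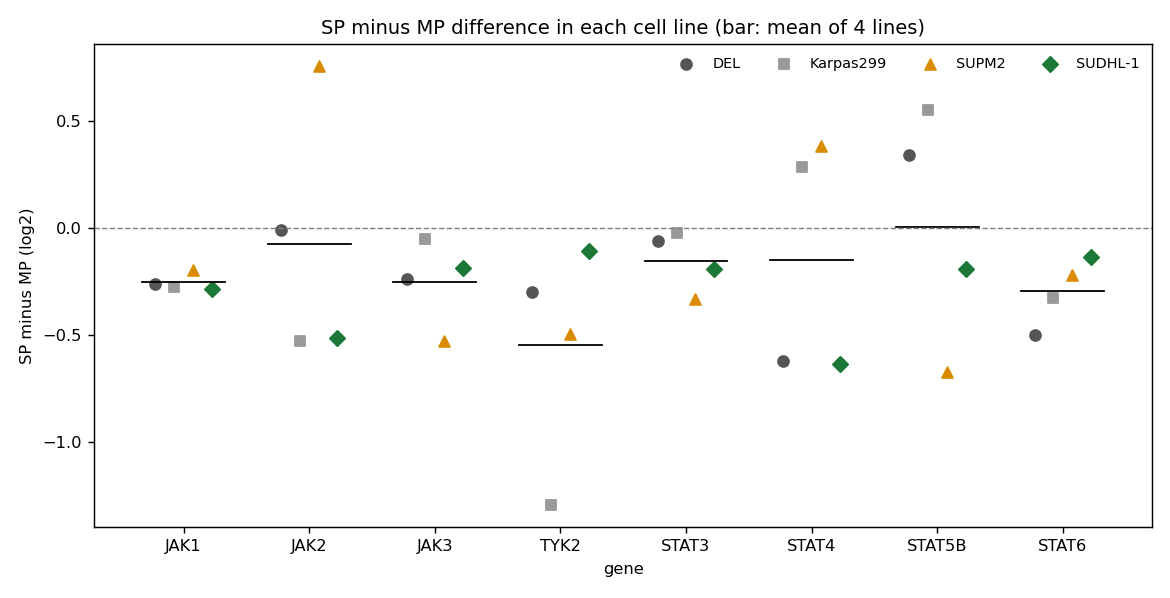
SP minus MP difference in log2 signal for each JAK and STAT gene in DEL, Karpas299, SUPM2 (1 SP and 1 MP array each) and SUDHL-1 (means of 3 and 3 arrays), with the mean of the 4 lines as a bar. JAK1, JAK3, TYK2, STAT3 and STAT6 lie below 0 in all 4 lines, and JAK2, STAT4 and STAT5B have lines on both sides.

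Across the 4 lines, each giving 1 difference, limma again passed 0 of 8 members and 0 of all genes (0%). At an unadjusted p under 0.05 there were 904 genes (4.91%) and 3 members. These were TYK2, with a mean difference of -0.55 ± 0.52 (SD, n = 4 lines), STAT6 with -0.29 ± 0.16 and JAK1 with -0.25 ± 0.040, each at a limma adjusted p of 0.918.

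JAK1 had the most even values, with SP minus MP at -0.26 in DEL, -0.27 in Karpas299, -0.19 in SUPM2 and -0.28 in SUDHL-1. STAT6 ran from -0.50 in DEL over -0.33 in Karpas299 and -0.22 in SUPM2 to -0.14 in SUDHL-1. TYK2 was at -1.29 in Karpas299, -0.50 in SUPM2, -0.30 in DEL and -0.11 in SUDHL-1. The Karpas299 pair thus set most of the TYK2 mean, which was -0.30 without that line.

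JAK3 (-0.24, -0.051, -0.52 and -0.19 in DEL, Karpas299, SUPM2 and SUDHL-1) and STAT3 (-0.062, -0.023, -0.33 and -0.19) were also below 0 in every line. That made 5 of 8 members with a lower SP value in all 4 lines, beside 5.65% of all genes. The members were read on the same arrays, so they do not count as separate observations. The number stayed at 5 under quantile normalization, median centring, a filter on dim genes and averaged probe sets. It was 4 without SP array 1, 2 or 3 or without MP array 3 of SUDHL-1, and 3 (JAK1, TYK2 and STAT6) without both arrays numbered 3, where 5.61% of genes did so.

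The remaining members changed sign between lines. JAK2 was higher in SP in SUPM2 (0.76) and lower in Karpas299 (-0.52) and SUDHL-1 (-0.51), with DEL at -0.010. STAT4 was higher in SP in SUPM2 (0.38) and Karpas299 (0.28) and lower in DEL (-0.62) and SUDHL-1 (-0.63). STAT5B was higher in SP in Karpas299 (0.55) and DEL (0.34) and lower in SUPM2 (-0.67) and SUDHL-1 (-0.19), and its 4-line mean was 0.0070 ± 0.55 (SD, n = 4).

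Whether the SP against MP difference itself differed between SUDHL-1 and the other lines was tested as an interaction over 12 arrays. None of the 8 members and none of the 18417 genes (0%) passed limma's adjusted threshold, and 661 genes (3.59%) and 0 members had an unadjusted p under 0.05. The largest terms were STAT4 at -0.65 (SE 0.36), TYK2 at 0.59 (SE 0.31) and JAK2 at -0.59 (SE 0.36), each with an adjusted p of 1.00.

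Genes that feed or restrain the JAK and STAT chain were then read from lists chosen by function, with earlier results of these data known. Each count in SUDHL-1 against the other lines stands beside 49.2% of all genes called lower and 16.4% higher as deposited, 28.4% and 23.2% after quantile normalization, and 24.3% and 28.9% after centring. Of 33 measured receptor genes that signal through Janus kinases, 23 were lower and 2 higher in SUDHL-1 than in the other lines as deposited, and 15 were lower with 2 or 3 higher under the other scalings. IL23R, a receptor chain served by JAK2 and TYK2, was at 2.40 to 3.11 on the 6 SUDHL-1 arrays and at 7.53 to 8.80 elsewhere, a log2 difference of -5.62 (SE 0.13, limma adjusted p = 3.99e-10). IL2RB, the receptor chain that JAK1 serves for IL2 and IL15, was lower at -2.49 (SE 0.17, adjusted p = 9.58e-07), and IL15RA at -2.59 (SE 0.19, adjusted p = 1.23e-06). IL2RG, the common gamma chain on which JAK3 sits, had a log2 difference of 0.014 (SE 0.38, adjusted p = 0.977) and spread from 3.96 to 6.39 within SUDHL-1.

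IL7R, the receptor of IL7, was lowest in SUDHL-1 and SUPM2, whose ranges overlapped, with 2.69 to 3.16 in SUDHL-1, 2.93 and 3.19 in SUPM2, 5.62 and 6.36 in Karpas299, and 7.72 and 8.19 in DEL. It was higher in DEL than in SUPM2 by 4.89 (SE 0.33, limma adjusted p = 0.00467). IL6ST, the shared signalling chain of the IL6 family and a partner of JAK1 and STAT3, was lower in SUDHL-1 at -0.95 (SE 0.28, adjusted p = 0.0110), a call lost after quantile normalization (-0.69, adjusted p = 0.0557) and after centring (-0.59, adjusted p = 0.101).

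Of 24 measured cytokine genes, 11 were lower and 2 higher in SUDHL-1, or 6 lower and 4 higher under either other scaling, lower shares close to those of all genes. IL22, a cytokine whose receptor signals mainly to STAT3, was at 11.56 and 11.89 in Karpas299, 4.62 and 6.59 in DEL, 3.64 and 4.24 in SUPM2, and 2.71 to 4.98 in SUDHL-1. It was higher in Karpas299 than in SUPM2 by 7.79 (SE 0.64, limma adjusted p = 0.00757), one line's 2 arrays standing above all others. IL7 was at 2.46 to 2.78 in SUDHL-1 and at 5.97 to 7.64 elsewhere, a difference of -4.08 (SE 0.21, adjusted p = 1.06e-07).

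Feedback inhibitors and phosphatases had no shared direction, with 6 of 18 higher and 7 lower in SUDHL-1 as deposited, 6 higher and 5 lower after quantile normalization and 8 higher and 4 lower after centring. SOCS2 was lower at -1.86 (SE 0.13, limma adjusted p = 7.55e-07) and PTPN6, the phosphatase that dephosphorylates Janus kinases, at -1.54 (SE 0.11, adjusted p = 1.33e-06). SOCS3, the inhibitor that STAT3 induces, was lower at -0.95 (SE 0.16, adjusted p = 3.74e-04). STAT3 RNA was higher in the same line, and a link between the levels of these genes was not tested. PIAS2, a SUMO ligase of the family that restrains STATs, was higher at 1.39 (SE 0.16, adjusted p = 2.49e-05). SOCS1 was lower at -0.35 (adjusted p = 0.0154) as deposited only, with -0.059 and 0.015 under the other scalings, and CISH did not pass at 0.11 (adjusted p = 0.626).

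Of 16 STAT partners, 7 were lower and 4 higher as deposited, and 4 to 6 lower with 6 higher under the other scalings. IRF9, which joins STAT2 in the interferon complex, was lower in SUDHL-1 at -1.98 (SE 0.23, limma adjusted p = 2.80e-05), and the coactivator CREBBP at -1.92 (SE 0.20, adjusted p = 1.65e-05). NDUFA13, a mitochondrial subunit also known as an inhibitor of STAT3, was higher at 1.44 (SE 0.13, adjusted p = 6.87e-06).

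**Figure D4:**
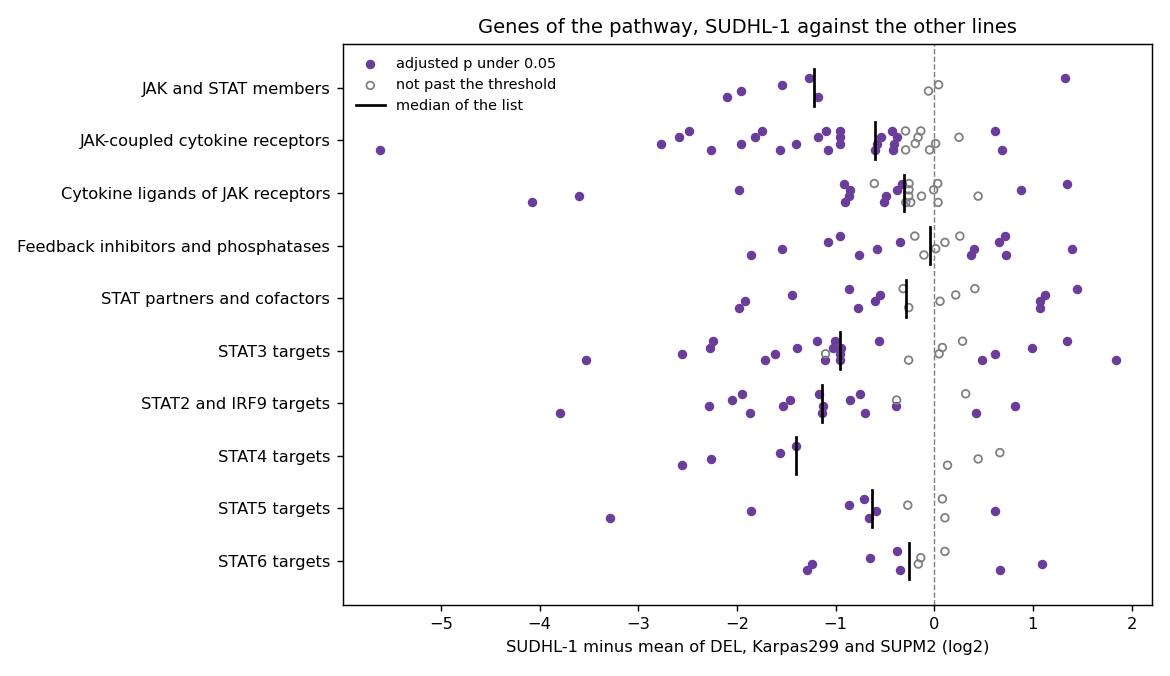
SUDHL-1 minus the mean of the other 3 lines (log2) for the JAK and STAT genes and for each measured gene of the pathway lists; filled points passed limma's adjusted threshold, open points did not, and bars are list medians. Points lie on both sides of 0 in the list of feedback inhibitors, and the medians of the target lists are all below 0 as deposited.

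Target genes of the STAT factors were read the same way. Of 25 genes listed as STAT3 targets, 15 were lower and 5 higher in SUDHL-1, against 49.2% and 16.4% of all genes. After quantile normalization 15 were lower and 6 higher, and after centring 14 were lower and 7 higher. JUNB, an AP-1 gene known to be high in ALCL, was at 7.55 to 8.60 in SUDHL-1 and 11.27 to 12.09 elsewhere, a difference of -3.53 (SE 0.16, limma adjusted p = 4.49e-08). PRF1, the cytotoxic granule gene perforin, was lower at -2.25 (SE 0.16, adjusted p = 1.26e-06) and TNFRSF8 at -1.71 (SE 0.17, adjusted p = 1.20e-05). The 5 higher genes were ICOS at 1.84, IL10 at 1.34, BCL2L1 at 0.99, IL2RA at 0.62 and DNMT1 at 0.49. Their limma adjusted p ran from 5.61e-04 (ICOS) to 0.00238 (IL10). Between Karpas299 and SUPM2, 4 of the 25 passed and all 4 were higher in Karpas299, as were 4.29% of all genes (3 passed after quantile normalization): DNMT1 (1.71, adjusted p = 0.0115), CCND3 (1.51, adjusted p = 0.0332), PIM1 (1.10, adjusted p = 0.0345) and TNFRSF8 (2.10, adjusted p = 0.0436).

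Of 18 interferon genes driven by STAT2 and IRF9, 14 were lower and 2 higher in SUDHL-1, against 49.2% and 16.4% of all genes, with 11 lower and 2 or 3 higher under the other scalings. MX1, an antiviral GTPase, was at 3.33 to 3.58 in SUDHL-1, 6.44 to 6.85 in DEL and SUPM2, and 8.22 and 8.37 in Karpas299. Its SUDHL-1 difference was -3.80 (SE 0.10, limma adjusted p = 1.32e-09), and it was higher in Karpas299 than in SUPM2 by 1.57 (SE 0.18, adjusted p = 0.0142). IFI27 had another order, highest in SUPM2 at 8.70 and 8.78 and at 4.73 to 6.11 on all other arrays.

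Of 7 STAT4 targets, 4 were lower in SUDHL-1 under each scaling, with 0 higher as deposited and 2 higher under either other scaling. The lower genes included the IL12 receptor chain gene IL12RB2 at -2.26 (SE 0.21, limma adjusted p = 5.79e-06). Of 10 STAT5 targets, 6 were lower and 1 higher, or 5 lower and 2 higher under either other scaling, with the survival kinase PIM2 at -3.29 (SE 0.26, adjusted p = 2.26e-06). Of 10 STAT6 targets, 5 were lower and 2 higher, or 3 lower and 2 higher under either other scaling, close to the share of all genes called lower. The list median was -0.26 as deposited and 0.11 after centring. ALOX15 was lower at -1.24 (limma adjusted p = 5.10e-06) and IL24 at -1.29 (adjusted p = 9.79e-06). FCER2 was also lower, at -0.65 (adjusted p = 1.26e-04). GATA3, the factor of type 2 helper cells, was higher at 1.10 (SE 0.17, adjusted p = 2.18e-04). Several genes stand on more than 1 of these lists.

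Between SP and MP cells no gene of these lists passed limma's adjusted threshold within SUDHL-1, over the 4 lines or in the interaction. PTPN6 was higher in SP in all 4 lines, at 0.74 in DEL, 0.40 in Karpas299, 0.65 in SUPM2 and 0.13 in SUDHL-1, with a mean of 0.48 (SE 0.14, limma adjusted p = 0.918). IL10, a cytokine that signals through JAK1, TYK2 and STAT3, was higher in SP by 0.73, 0.70, 1.41 and 0.35 in the same order (mean 0.80, SE 0.18, adjusted p = 0.918). IL23R was higher by 0.93, 0.31, 0.67 and 0.35 (mean 0.57, SE 0.14, adjusted p = 0.918). IL2RB went the other way, at -0.12, -0.072, -0.34 and -0.21, and OSMR, EBI3, NDUFA13 and BCL2 were also lower in SP in every line. Of the 33 receptor genes, 3 were above 0 and 2 below 0 in all 4 lines, and of the 24 cytokine genes 2 and 1, against 8.09% and 5.65% of all genes. The same counts were 2 and 0 of 18 feedback genes and 0 and 1 of 16 partners. Among targets they were 2 and 0 of 25 for STAT3, 1 and 0 of 18 for STAT2 and IRF9, and 0 and 0 of 7 for STAT4. They were 0 and 1 of 10 for STAT5 and 2 and 0 of 10 for STAT6.

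Over the 8 means of line and population, the members varied most for STAT4 (SD 1.11), JAK3 (SD 0.96) and TYK2 (SD 0.84) and least for JAK2 (SD 0.32). JAK1, JAK3, STAT4 and STAT6 followed each other over these means, with Pearson r of 0.964 for JAK3 with STAT6, 0.946 for STAT4 with STAT6 and 0.940 for JAK1 with JAK3. STAT3 ran against JAK3 with r of -0.798. These r describe 8 points that share 4 lines and the gap between SUDHL-1 and the rest, and carry no test.

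The genes of most like pattern by the same measure were CYP2D6 (0.998), JPT1 (0.994) and ELK1 (0.992) for JAK3, CERS2 (0.986), PI4KB (0.985) and ATG9A (0.982) for STAT4, and GALT (0.977), ECI1 (0.977) and ARFIP2 (0.975) for TYK2. Over the 6 arrays of DEL, Karpas299 and SUPM2 alone, r was 0.987, 0.959 and 0.939 for the JAK3 genes, 0.932, 0.926 and 0.961 for the STAT4 genes, and 0.970, 0.996 and 0.954 for the TYK2 genes. These 6 arrays are 6 of the 8 means by which the genes were picked, so this r is no separate check. CYP2D6 ran only from 5.39 to 6.03 over the 8 means, while JAK3 had a range of 2.64.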

How the data were processed

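SP and MP cells of 4 ALCL lines were measured on 12 arrays. Per the labels' protocols, RNA was amplified with a kit for small amounts and labelled with biotin. The authors deposited log2 signals; RMA is the method named by the submitters' processing notes, without a version; a joint normalization of the 12 columns is not stated there. Of 33297 probe sets, 19460 had 1 symbol in the platform annotation, 1754 several and 12083 none. The probe set of highest mean stood for a gene, leaving 18417 genes; 0 value columns were left out. Linear models of these values (limma 3.58.1 under R 4.3.3, moderated by eBayes) gave two-sided tests with Benjamini-Hochberg adjustment over all genes. The line is the pair across lines. Fits were tested on simulated data. Alternatives covered a filter on the lowest 25% of genes, scaling, probe set averaging, variance model, a replicate block and left-out arrays or lines; fits without both arrays numbered 3 were added after seeing the data. The members and lists were chosen with earlier results of these data known. All members were named, with 8 fixed pathway genes that were measured and up to 4 genes of smallest p per list and comparison described. IL10, IL12RB2 and single target genes fall under that rule, and the STAT3 targets higher in SUDHL-1 were named beside it.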

Additional observations from a re-analysis of the deposited data

How the results depend on the processing

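Of the 624 member values recomputed under alternatives, 580 kept their direction and their side of the threshold, 5 newly passed and 39 changed sign without passing; the cause was not tested. Median centring and a robust trended variance each called 1 member (STAT3, 0.97 and 0.90) between Karpas299 and SUPM2. The 12-array fit, with 7 residual degrees of freedom in place of 2, called 2 there (STAT3 and STAT5B) and 1 (TYK2) between DEL and Karpas299. It called 958, 1536 and 1971 genes in place of 444, 869 and 1255 for DEL against Karpas299, DEL against SUPM2 and Karpas299 against SUPM2. In SUDHL-1 against the other lines, 6 members passed in each of the 15 alternatives run, with STAT3 at 1.13 to 1.68 and JAK3 at -2.16 to -1.59.

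None of the values that changed sign passed the threshold. Quantile normalization turned JAK1 in DEL against SUPM2 (-0.057), and JAK2 in Karpas299 against SUPM2 (0.033) and in SUDHL-1 against the other lines (0.28); median centring turned the same JAK2 values (0.068 and 0.30). In the 4-line mean, STAT4 was 0.011 without DEL and 0.015 without SUDHL-1, JAK2 was 0.078 without Karpas299 and 0.074 without SUDHL-1, and STAT5B was -0.10 without DEL and -0.17 without Karpas299. In SUDHL-1 against the other lines, STAT5B was -0.11 without DEL and -0.18 without SUPM2, and JAK2 was 8.43e-04 without Karpas299 and 0.0043 without SUPM2. In the interaction, STAT3 was 0.0051 without Karpas299 and JAK3 -0.043 without SUPM2. Without both SUDHL-1 arrays numbered 3, JAK3 (0.13) and STAT3 (0.035) turned within SUDHL-1, JAK1 (0.21) and STAT3 (0.17) in the interaction, and STAT5B (-0.077) in SUDHL-1 against the other lines.

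Leaving out 1 SUDHL-1 array at a time gave, within SUDHL-1, -0.33 to 0.052 for JAK3, -0.24 to 0.047 for TYK2 and -0.36 to 0.14 for STAT6. It gave -0.019 to 0.052 for STAT5B in the 4-line mean, and -0.19 to 0.13 for JAK1, -0.063 to 0.32 for JAK3, -0.16 to 0.091 for STAT3 and -0.015 to 0.49 for STAT6 in the interaction. In SUDHL-1 against the other lines it gave -0.15 to 0.037 for JAK2 and -0.051 to 0.11 for STAT5B, and 6 members passed each time. Same-numbered SP and MP arrays of SUDHL-1 did not deviate together (correlations of -0.0037, -0.077 and -0.13). With 3 arrays per population this cannot show whether the numbers pair samples, which the labels do not state. With the replicate block 0 members and 0 genes passed. All comparisons of DEL, Karpas299 and SUPM2 rest on 1 SP and 1 MP array per line, and STAT4 was dim in SUDHL-1.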
